A study of Saccharomyces cerevisiae with 8 samples.

Results

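The proteins of the large (60S) ribosomal subunit of budding yeast are encoded by 81 of the 6692 genes in the count table. They were chosen by name alone: the 76 genes named RPL with a number and an optional A or B, and the 5 P protein genes RPP0, RPP1A, RPP1B, RPP2A and RPP2B. The rule uses no measured value, but it was set with earlier results of these data known. Of the 81 genes, 66 form 33 pairs of A and B copies from gene duplication, and 15 are single-copy or P protein genes, so that the set makes 48 proteins when each pair is counted once.

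The study is a ribosome profiling experiment in Saccharomyces cerevisiae, which sequences the mRNA fragments that ribosomes cover, here 26 to 32 nt long. There were 8 libraries in 4 groups of 2. Monosome footprints came from the gradient fraction in which a single 80S ribosome sits on an RNA, polysome footprints from the fractions with several ribosomes per mRNA, and global footprints from lysate that was not split this way. The mRNA libraries held fragments of 20 to 45 nt. All groups shared growth in YEPD at 30 °C to an OD600 of 0.6 and 2 min of cycloheximide, which stops elongation, at 100 µg/ml. The labels name no strain and no mutant, and they do not say that replicates were separate cultures. Each p-value therefore covers only the variation between the 2 libraries of a group, pooled over all 4 groups. That variation may be technical.

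A ribosome is built in the nucleolus, where most large subunit proteins join pre-ribosomal RNA, and a few are added in the cytoplasm after export. Cells keep the proteins in equal amounts, and their mRNAs are short, abundant and among the most heavily translated in growing yeast. On a short reading frame, or during the first round of initiation, an mRNA can carry a single ribosome and travels in the monosome fraction.

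The libraries held 4723489 and 6443263 counts for monosomes, 8686385 and 7494965 for polysomes, 749057 and 552992 for global footprints and 933252 and 672928 for mRNA. Large subunit protein genes took 20.2% ± 0.540 of the monosome counts, 17.6% ± 0.0706 of the polysome counts, 14.7% ± 0.648 of the global counts and 7.63% ± 0.263 of the mRNA counts (SD, n = 2 each). All 81 genes had counts in every library and passed the low-count filter. The count of a single member ranged between 417 and 57911 in monosome libraries, 792 and 59683 in polysome libraries, 36 and 5090 in global libraries, and 7 and 12655 in mRNA libraries. The lowest value in each library is that of RPL15B, the minor copy of a pair. Between the 2 replicates of a group, the log2 levels of the 81 genes correlated with an r of 0.988 to 0.997 across genes, which are not independent replicates. The replicate libraries differed by more than counting noise, with a chi-square per degree of freedom of 1.49 to 5.42.

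Levels are given as CPM, the counts of a gene brought to one common library size by edgeR's TMM factors, which assume that most genes do not differ. A fold change is a log2 ratio of the group named first to the group named second, with its standard error (SE). A gene is called higher or lower where edgeR's quasi-likelihood test over all 5336 genes that passed the filter gave a Benjamini-Hochberg adjusted p under 0.05. CPM is not divided by gene length, so it is compared between groups for the same gene and not between genes of different length. How reads shared by near-identical A and B copies were assigned is not given in the sources used here, so the split between copies, RPL41A and RPL41B above all, is uncertain.

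Monosome over polysome compares where the ribosomes on each mRNA were found. In monosomes, 35 of the 81 genes (43.2%) were lower than in polysomes and 14 (17.3%) were higher, while 33.5% of all tested genes were lower and 36.6% higher. The median log2 fold change of the 81 genes was -0.17, against 0.05 for all tested genes. Scaled by library totals alone, the median of the 81 turned to 0.29 and the calls to 46 higher and 18 lower, while the median of all genes moved to 0.50, with 56.8% of all genes higher and 16.2% lower. A change of scaling moves all genes by nearly the same amount. The distance between the 2 medians, -0.22 under either scaling, could therefore hardly change, and its agreement is no added support. Among the 5336 genes the set was lower only relative to other genes. When the test was limited to the 3086 genes that averaged 100 counts or more, that distance turned to 0.06. The median of the 81 genes was then 0.08, so the relative direction did not hold under this filter. The calls were 26 higher and 23 lower, with 38.6% of all these genes higher and 36.2% lower. CPM of the 2 groups did not overlap for 71 of the 81 genes (87.7%), against 84.4% of all tested genes.

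Changes of at least 2-fold were seen for 4 genes that rose and 6 that fell, which is 4.94% and 7.41% of the members against 17.1% and 7.98% of all tested genes. The 4 were RPL41A, RPL41B, RPL22B and RPL29. The 6 were RPL13A, RPL3, RPL16B, RPL19B, RPP0 and RPL13B.

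**Figure D1:**
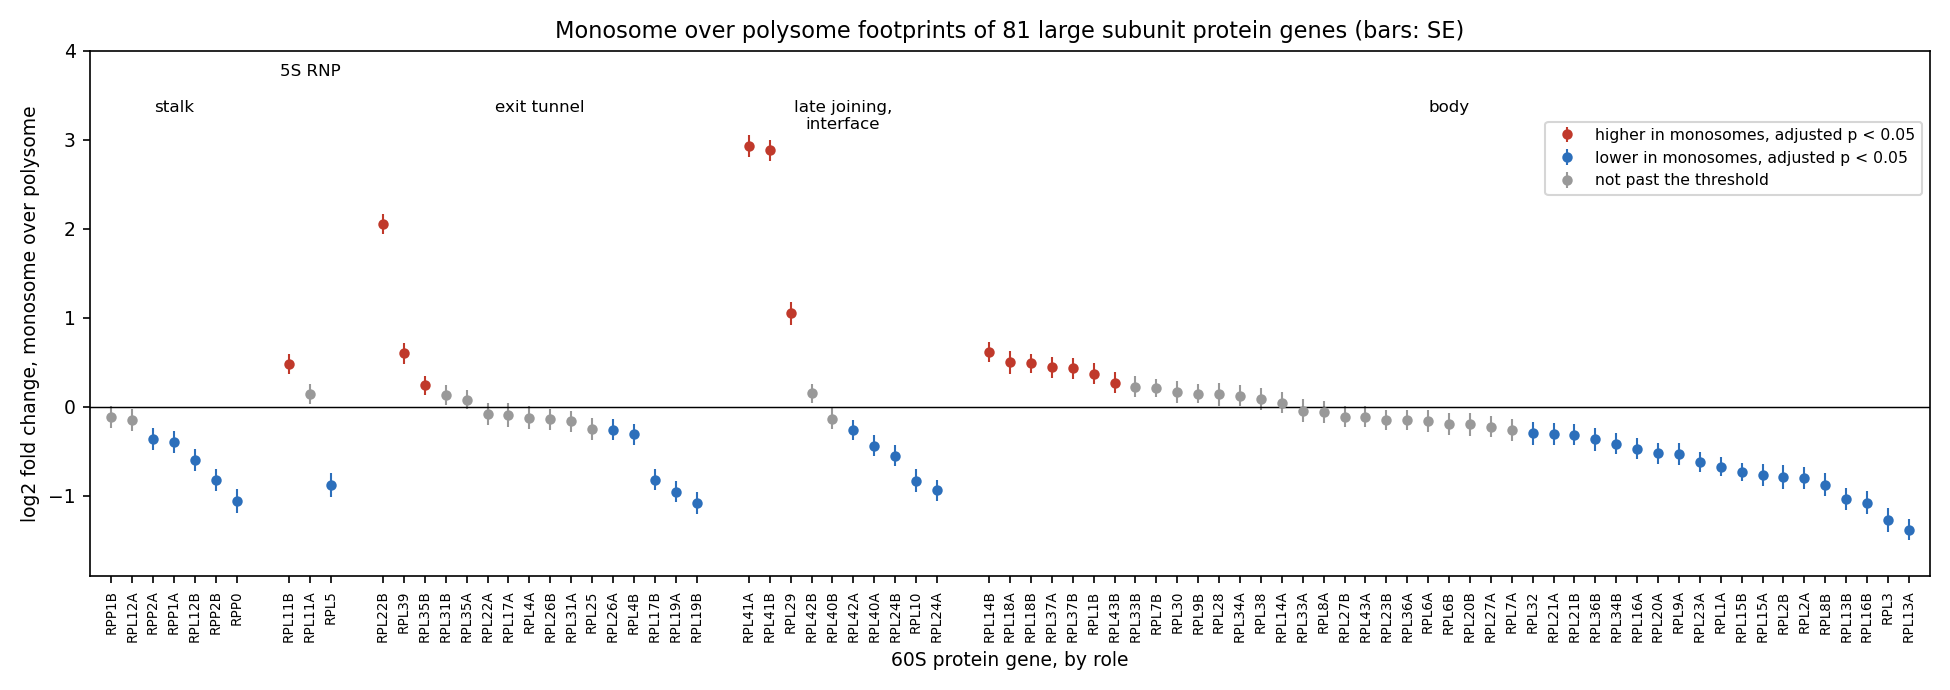
Log2 fold change of monosome over polysome footprints (y axis, points, with bars of 1 SE) for each of the 81 genes (x axis), ordered within 5 role groups. RPL41A, RPL41B, RPL22B and RPL29 stand above 1, and the 7 stalk genes lie below 0 in this fit of 5336 genes with TMM scaling. With genes averaging 100 counts or more RPP1B is at 0.13. The medians of all 5 role groups lie above 0 when libraries are scaled by their totals alone.

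RPL41A and RPL41B encode the same 60S protein, the smallest of the ribosome, which sits at the interface of the subunits. RPL41A (YDL184C, chromosome IV, 130407 to 130484 in R64, a span of 78 nt) had 3365 and 2911 CPM in monosome libraries, against 384 and 440.0 CPM in polysome libraries. RPL41B (YDL133C-A, chromosome IV, 221724 to 221801, also 78 nt) had 1136 and 948 CPM in monosome libraries, against 132 and 151 CPM in polysome libraries. For both copies each monosome library lay far above each polysome library, with no overlap. The log2 fold changes were 2.93 (edgeR adjusted p = 4.85e-38, SE 0.13) and 2.88 (SE 0.12, adjusted p = 4.41e-40), or 7.62-fold and 7.37-fold.

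RPL22B is the minor copy of the pair that encodes Rpl22, a protein on the outer surface near the exit tunnel that in yeast can be deleted, and that represses splicing of the RPL22B transcript. RPL22B (YFL034C-A, chromosome VI, 64243 to 64932) had 772 and 636 CPM in monosome libraries, against 173 and 165 CPM in polysome libraries. The 2 groups stood apart, and the log2 fold change was 2.05 (edgeR adjusted p = 2.44e-32, SE 0.11). RPL22A, the major copy, had 4016 and 3919 CPM in monosome libraries, against 4448 and 3964 CPM in polysome libraries, and the groups overlapped. Its log2 fold change of -0.08 did not pass the test (edgeR adjusted p = 0.557, 95% interval -0.33 to 0.16), and it turned to 0.37, with a call, under library totals. Spans in R64 include introns, and the counts do not tell spliced from unspliced RNA.

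RPL29 encodes a short basic protein close to the subunit interface that is dispensable in yeast. RPL29 (YFR032C-A, chromosome VI, 223258 to 223437, 180 nt) had 7842 and 7173 CPM in monosome libraries, against 3672 and 3588 CPM in polysome libraries. Each monosome library was above each polysome library, and the log2 fold change was 1.05 (edgeR adjusted p = 7.12e-12, SE 0.13). RPL39, a short protein that lines the exit tunnel, had 2427 and 2077 CPM in monosome libraries, against 1504 and 1469 CPM in polysome libraries. It rose by a log2 fold change of 0.60 (SE 0.12, adjusted p = 5.12e-06), again without overlap.

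The other late joining and interface proteins went the other way or did not pass the test. Of the 10 genes in this group 3 rose and 5 fell, against 36.6% and 33.5% of all tested genes. Under library totals 5 rose and 2 fell, against 56.8% and 16.2%. RPL10, whose protein is among the last to be loaded and shapes the tRNA sites, had 4545 and 3959.9 CPM in monosome libraries, against 7805 and 7321 CPM in polysome libraries, a log2 fold change of -0.83 (edgeR adjusted p = 2.4e-08, SE 0.13). RPL24A, which forms a bridge to the small subunit, had 1499 and 1396 CPM in monosome libraries, against 2886 and 2668 CPM in polysome libraries. It had the lowest fold change of the group, -0.94 (SE 0.12, adjusted p = 2.84e-11). RPL40A and RPL40B encode Rpl40 fused to ubiquitin. RPL40A had a log2 fold change of -0.44 (SE 0.12, adjusted p = 0.000577), a call that was lost without polysome replicate 1 (adjusted p = 0.0509) and with genes averaging 100 counts or more (-0.19, adjusted p = 0.0896), and whose sign turned under library totals (0.02). RPL40B, at -0.13 (SE 0.12, adjusted p = 0.297), did not pass the test.

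The stalk is the flexible arm of the subunit that recruits elongation factors; Rpp0 is its base, and P1 and P2 proteins bind to it in pairs. In monosomes 5 of its 7 genes were lower than in polysomes, against 33.5% of all tested genes. Their median of -0.40 on the log2 scale turned to 0.06 under library totals. There 2 rose and 2 fell, against 56.8% and 16.2% of all tested genes. RPP0 (YLR340W, chromosome XII, 805887 to 806825) had 3020.2 and 2999 CPM in monosome libraries, against 6807 and 5746 CPM in polysome libraries. The groups did not overlap, and RPP0 fell by the most in the group, with a log2 fold change of -1.06 (edgeR adjusted p = 1.22e-11, SE 0.13). RPP2B had 1814 and 2025 CPM in monosome libraries, against 3618 and 3162 CPM in polysome libraries, a log2 fold change of -0.82 (SE 0.12, adjusted p = 4.35e-09). RPP1A and RPP2A fell by less, with -0.40 (SE 0.12, adjusted p = 0.00256) and -0.36 (SE 0.12, adjusted p = 0.00592). Both of these calls were lost without polysome replicate 1 (adjusted p = 0.0987 for RPP1A and 0.0810 for RPP2A), RPP1A's also without monosome replicate 1 (adjusted p = 0.0938), and both signs turned under library totals, to 0.06 and 0.09. With genes averaging 100 counts or more neither passed (RPP1A -0.15, adjusted p = 0.215, and RPP2A -0.12, adjusted p = 0.316). RPP1B had 3163 and 3456 CPM in monosome libraries, against 3795 and 3352 CPM in polysome libraries, and its groups overlapped. Its log2 fold change of -0.11 did not pass the test (edgeR adjusted p = 0.426, 95% interval -0.35 to 0.13). It was 0.35 under library totals and 0.13 with genes averaging 100 counts or more. RPL12B, one of the 2 genes for the protein at the stalk base, fell by a log2 fold change of -0.60 (SE 0.12, adjusted p = 1.36e-05), while RPL12A had -0.15 (SE 0.12, adjusted p = 0.27).

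Rpl5 and Rpl11 bind 5S rRNA and enter the subunit with it. RPL5 had 3529.8 and 3716 CPM in monosome libraries, against 7065 and 6276 CPM in polysome libraries, a log2 fold change of -0.88 (edgeR adjusted p = 5.04e-09, SE 0.13). RPL11B had 1493 and 1457 CPM in monosome libraries, against 1054 and 1055 CPM in polysome libraries and rose by 0.48 (SE 0.11, adjusted p = 8.71e-05) on the log2 scale. RPL11A had 0.14 (SE 0.12, adjusted p = 0.271) and overlapping libraries, so the genes of this complex did not share a direction.

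Among the 16 exit tunnel genes 3 rose and 5 fell, against 36.6% and 33.5% of all tested genes. Under library totals the balance turned to 12 that rose and 3 that fell, against 56.8% and 16.2% of all tested genes. With genes averaging 100 counts or more it was 5 and 3, against 38.6% and 36.2% of all genes in that test. RPL19B, whose protein lies near the exit and also contacts the small subunit, had 1692 and 1568 CPM in monosome libraries, against 3565 and 3312 CPM in polysome libraries. It had the lowest fold change of the group, -1.08 (edgeR adjusted p = 5.37e-13, SE 0.12), and its copy RPL19A was close to it, with -0.96 (SE 0.12, adjusted p = 1.4e-11). RPL25, the docking site at the tunnel exit for the signal recognition particle and nascent chain factors, had 3551 and 3484 CPM in monosome libraries, against 4353 and 4032 CPM in polysome libraries. Its libraries did not overlap, but its log2 fold change of -0.25 missed the threshold (edgeR adjusted p = 0.0632). It passed with DESeq2 (adjusted p = 0.0297) and in the edgeR fit with the replicate number as a block (adjusted p = 0.00695), and it was 0.20 under library totals.

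The remaining 45 genes make up the body of the subunit, and 7 of them rose and 19 fell, against 36.6% and 33.5% of all tested genes. Under library totals 25 of the 45 rose and 10 fell, against 56.8% and 16.2% of all tested genes. With genes averaging 100 counts or more 15 rose and 13 fell, against 38.6% and 36.2% of all genes in that test. RPL3, which reaches the peptidyl transferase centre, is at chromosome XV, 444686 to 445849 (YOR063W, 1164 nt). It had 2865 and 2624 CPM in monosome libraries, against 6857 and 6387 CPM in polysome libraries, a log2 fold change of -1.27 (edgeR adjusted p = 2.21e-14, SE 0.14). RPL13A (YDL082W, chromosome IV, 308424 to 309388) had 650.1 and 588 CPM in monosome libraries, against 1720.1 and 1504 CPM in polysome libraries. This was the largest fall of the 81 genes, -1.38 (SE 0.12, adjusted p = 3.91e-19), and its copy RPL13B fell by 1.03 on the log2 scale. RPL16B had 1929 and 1932 CPM in monosome libraries, against 4278 and 3868 CPM in polysome libraries, a log2 fold change of -1.08 (SE 0.13, adjusted p = 1.46e-12). At the other end RPL14B had 1389 and 1299.7 CPM in monosome libraries, against 867 and 888 CPM in polysome libraries and rose by 0.62 (SE 0.11, adjusted p = 9.99e-07). RPL30, whose protein represses splicing of its own transcript in yeast, had 4977 and 4486 CPM in monosome libraries, against 4164 and 4290.4 CPM in polysome libraries, without overlap but with a log2 fold change of 0.16 (SE 0.13, adjusted p = 0.242). It passed under library totals (0.61, adjusted p = 1.33e-08) and with genes averaging 100 counts or more (0.40, adjusted p = 0.00145).

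**Figure D2:**
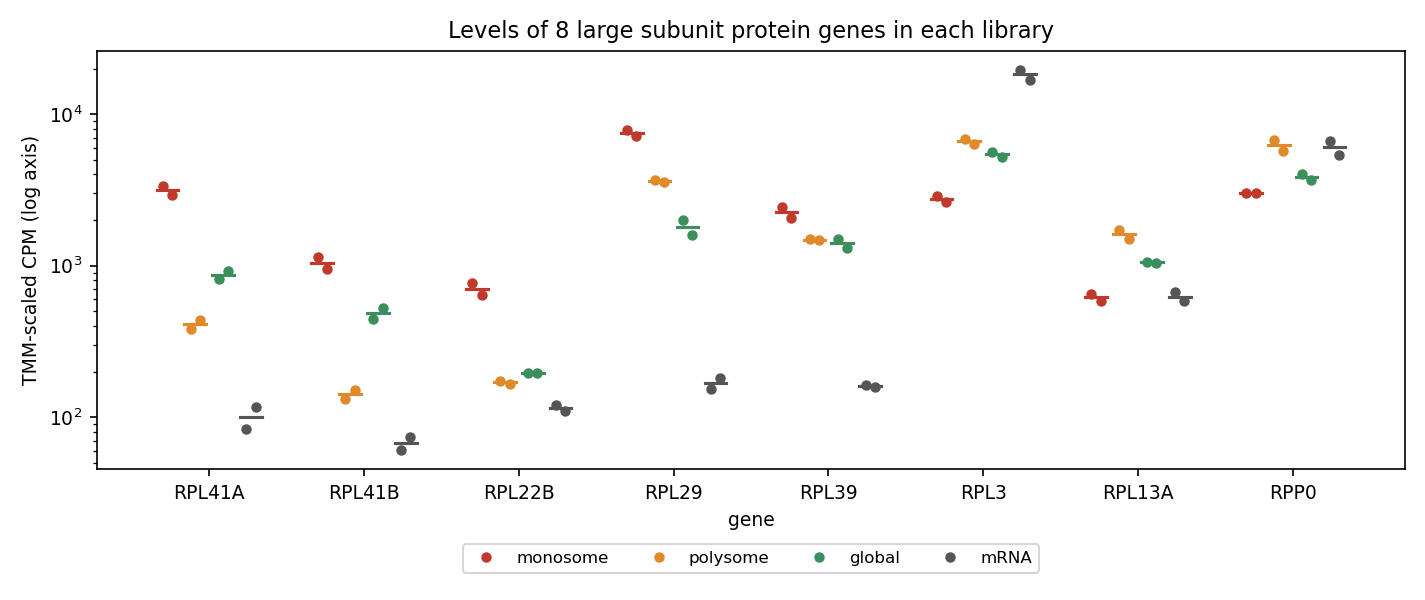
TMM-scaled CPM on a log axis (y axis) of 8 genes (x axis) in each library; points are libraries, short lines are means of 2 libraries, and colours are the 4 groups. RPL41A and RPL41B are highest in monosomes and lower in polysomes than in global footprints, whereas RPL3, RPL13A and RPP0 are lower in monosomes than in polysomes and global footprints.

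Monosome over global and polysome over global set each fraction against footprints from unfractionated lysate; both use the same 2 global libraries, so they are not independent of each other. Relative to global footprints, 54 of the 81 genes (66.7%) were higher in monosomes and 7 (8.64%) were lower, while 22.2% of all tested genes were higher and 24.3% lower. The median log2 fold change was 0.50, against -0.00 for all genes. In polysomes 66 genes (81.5%) were higher and 2 (2.47%) were lower than in global footprints, against 13.5% and 10% of all tested genes. The median was 0.68, against -0.02 for all genes. The median of the members thus lay above global footprints in both fractions, although lysate that was not split holds both. A rise in both is therefore not read as a shift between the fractions. Whether the global libraries differed in their preparation was not tested. Under library totals the polysome count was 43 higher and 12 lower, with medians of 0.23 for the 81 genes and -0.46 for all genes, whose calls were 3.39% higher and 37.5% lower. CPM of the 2 groups did not overlap for 82.7% of the members in monosome over global and 95.1% in polysome over global, against 73.6% and 62.4% of all tested genes.

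Of the 81 genes, 14 rose at least 2-fold in monosomes over global footprints (17.3%, against 10.1% of all tested genes). RPL29 was the highest, with 7842 and 7173 CPM in monosome libraries, against 2011 and 1582 CPM in global libraries, and a log2 fold change of 2.06 (edgeR adjusted p = 7.94e-25, SE 0.13). RPL41A had 3365 and 2911 CPM in monosome libraries, against 819 and 924 CPM in global libraries (log2 fold change 1.85, SE 0.13, adjusted p = 1.5e-23), and RPL22B had 772 and 636 CPM in monosome libraries, against 197 and 196 CPM in global libraries (log2 fold change 1.84, SE 0.13, adjusted p = 1.64e-23). In these 3 genes no monosome library overlapped a global one. RPL22A, which did not pass the test between monosomes and polysomes, was higher in monosomes than in global footprints, with 1.00 (SE 0.13, adjusted p = 1.46e-10), and so was RPL30, with 1.18 (SE 0.13, adjusted p = 2.81e-13). RPL11B had 1.15 (SE 0.12, adjusted p = 5e-14), the highest of the 5S group.

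The 7 genes that fell in monosomes relative to global footprints were RPL3, RPL13A, RPL13B, RPL1A, RPL16B, RPP0 and RPL15A. RPL3 had 2865 and 2624 CPM in monosome libraries, against 5653 and 5222 CPM in global libraries, a log2 fold change of -0.99 (edgeR adjusted p = 1.14e-09, SE 0.14). RPL13A had 650.1 and 588 CPM in monosome libraries, against 1065 and 1036 CPM in global libraries (log2 fold change -0.76, SE 0.12, adjusted p = 7.74e-08). RPP0 had 3020.2 and 2999 CPM in monosome libraries, against 4035 and 3701 CPM in global libraries, and its call (log2 fold change -0.36, SE 0.13, adjusted p = 0.0184) was lost when monosome replicate 1, monosome replicate 2 or global replicate 1 was left out (adjusted p = 0.0788, 0.0925 and 0.165). RPL10 had 4545 and 3959.9 CPM in monosome libraries, against 4532 and 4224 CPM in global libraries, which overlapped, and a log2 fold change of -0.04 (SE 0.13, adjusted p = 0.821) with a 95% interval of -0.30 to 0.22. RPL5 had -0.20 (SE 0.13, adjusted p = 0.224).

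In polysomes over global footprints 14 genes rose and 2 fell at least 2-fold, which is 17.3% and 2.47% of the members against 1.33% and 4.42% of all tested genes. The rise was largest for RPL36B, a body protein, with 4472 and 4885 CPM in polysome libraries, against 1876 and 1488 CPM in global libraries and a log2 fold change of 1.47 (edgeR adjusted p = 2.29e-16, SE 0.13). RPL4A, whose protein has a loop that reaches into the exit tunnel, had 2917 and 2849 CPM in polysome libraries, against 1267 and 1010.1 CPM in global libraries (log2 fold change 1.34, SE 0.13, adjusted p = 7.75e-14). RPL33A followed with 3543 and 3268 CPM in polysome libraries, against 1584 and 1215 CPM in global libraries (log2 fold change 1.28, SE 0.13, adjusted p = 1.27e-13). In all 3 the polysome libraries lay above the global libraries.

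The 2 genes that fell in polysomes over global footprints were RPL41A and RPL41B. RPL41A had 384 and 440.0 CPM in polysome libraries, against 819 and 924 CPM in global libraries, a log2 fold change of -1.08 (edgeR adjusted p = 3.69e-11, SE 0.13), and RPL41B had 132 and 151 CPM in polysome libraries, against 445 and 528 CPM in global libraries, with -1.78 (SE 0.13, adjusted p = 2.54e-22). The libraries did not overlap in either gene. RPL22B had -0.21 (SE 0.13, adjusted p = 0.252), which passed under library totals (-0.66, adjusted p = 3.18e-05) and with genes averaging 100 counts or more (-0.36, adjusted p = 0.0223). RPL39 had overlapping libraries and 0.08 (SE 0.12, adjusted p = 0.69), and its sign turned under library totals (-0.37). RPL3 had 0.28 (SE 0.13, adjusted p = 0.115), which passed with the replicate number as a block (0.28, adjusted p = 0.00723) and turned to -0.17 under library totals.

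**Figure D3:**
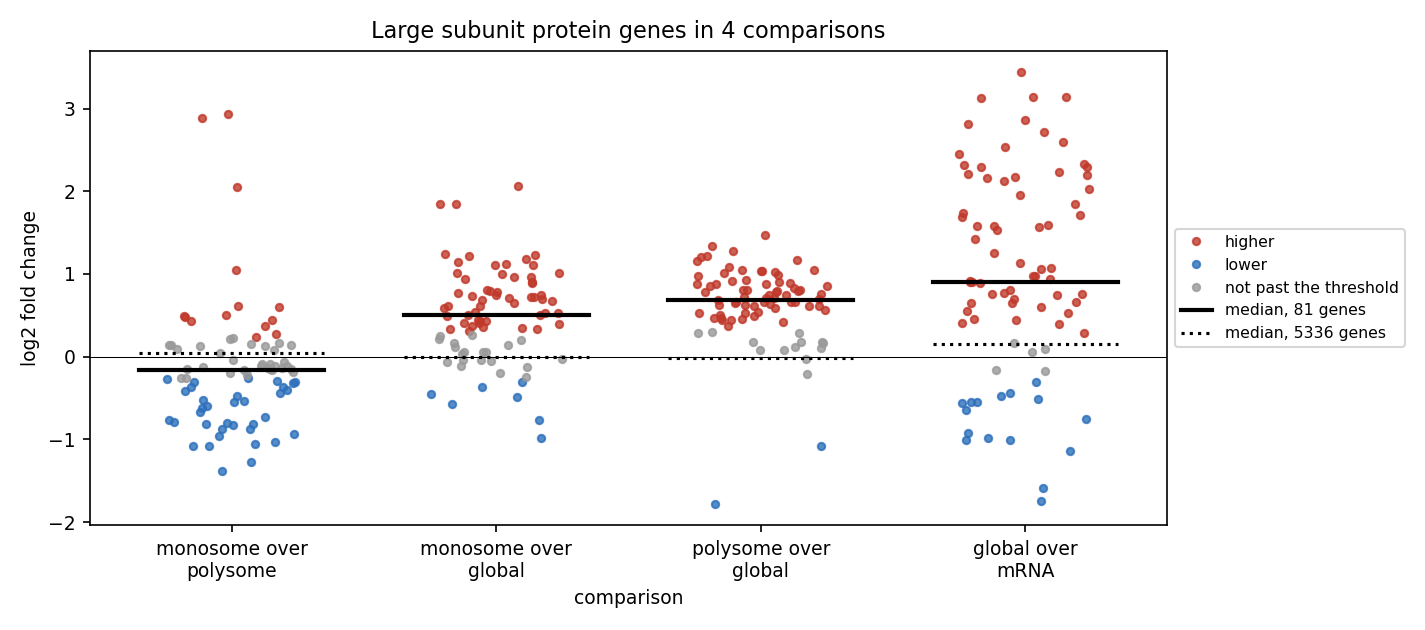
Log2 fold change (y axis) of each of the 81 genes (points, coloured by call) in the 4 comparisons (x axis), with TMM scaling; solid lines are the medians of the 81 genes and dotted lines those of all 5336 genes tested. The medians of the 81 genes are -0.17, 0.50, 0.68 and 0.90, and the first turns to 0.29 under library totals.

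Genes of each role group were among those higher in polysomes than in global footprints, a call made for 13.5% of all tested genes. Of the stalk genes 6 of 7 rose in polysomes over global footprints (median 0.80), of the 5S group all 3 (0.68), of the exit tunnel group 13 of 16 (0.86), of the late joining and interface group 8 of 10 (0.80) and of the body 36 of 45 (0.62). Under library totals, where 3.39% of all tested genes rose, the counts were 6 stalk genes, 2 of the 5S group, 10 of the exit tunnel with 3 that fell, 6 of the late joining group with 2 that fell, and 19 of the body with 7 that fell. RPP2B had 3618 and 3162 CPM in polysome libraries, against 1563 and 1346 CPM in global libraries, a log2 fold change of 1.22 (edgeR adjusted p = 2.81e-13, SE 0.13), and RPP2A had 1.05 (SE 0.13, adjusted p = 6.98e-11). RPP1A had 0.28 (SE 0.12, adjusted p = 0.0887), which passed when the replicate number was a block (adjusted p = 0.0147). RPP1B had 0.86 (SE 0.13, adjusted p = 6.49e-08) and RPP0 0.70 (SE 0.13, adjusted p = 1.74e-05). In monosomes over global footprints 4 of the 7 stalk genes rose and 1 fell, against 22.2% and 24.3% of all tested genes. RPP1B led with 0.74 (SE 0.13, edgeR adjusted p = 5.02e-07). RPP2A had 0.69 (SE 0.13, adjusted p = 2.32e-06) and RPP1A -0.12 (SE 0.12, adjusted p = 0.46). RPP2B had 0.40 (SE 0.13, adjusted p = 0.00575), a call lost without monosome replicate 2 (adjusted p = 0.0939) or global replicate 2 (adjusted p = 0.142).

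Global over mRNA compares footprints with the level of the transcript, the ratio known as translational efficiency. Of the 81 genes 60 (74.1%) were higher in global footprints than in mRNA and 16 (19.8%) were lower, while 34.8% of all tested genes were higher and 31.0% lower. The median log2 fold change was 0.90, against 0.15 for all genes. Changes of at least 2-fold made up 36 of the rises and 5 of the falls (44.4% and 6.17%, against 28.5% and 24.3% of all tested genes). Under library totals 70 genes rose and 6 fell, against 54.5% and 19.3% of all tested genes, and the medians were 1.66 for the 81 genes and 0.91 for all. CPM of the 2 groups did not overlap for 95.1% of the members, against 81.2% of all tested genes. Footprints and mRNA fragments were made by different protocols and in different size windows, whose part in the fold changes was not tested.

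The highest ratios were those of RPL29, RPL31A and RPL41A. RPL29 had 2011 and 1582 CPM in global footprint libraries, against 154 and 180.0 CPM in mRNA libraries, a log2 fold change of 3.44 (edgeR adjusted p = 9.01e-35, SE 0.17). RPL31A, a small protein at the tunnel exit, had 2189 and 2042 CPM in global footprint libraries, against 213 and 269 CPM in mRNA libraries (log2 fold change 3.15, SE 0.15, adjusted p = 1.25e-34). RPL41A had 819 and 924 CPM in global footprint libraries, against 83.8 and 116 CPM in mRNA libraries (log2 fold change 3.14, SE 0.18, adjusted p = 9.28e-31). In each of the 3 the footprint libraries were many times higher than the mRNA libraries. RPL39 had 1506 and 1308 CPM in global footprint libraries, against 163 and 159 CPM in mRNA libraries (log2 fold change 3.13, SE 0.16, adjusted p = 9.92e-34), and RPL41B had 445 and 528 CPM in global footprint libraries, against 60.6 and 73.5 CPM in mRNA libraries (log2 fold change 2.87, SE 0.18, adjusted p = 1.66e-26). Of the stalk, RPP2B had 2.46 (SE 0.15, adjusted p = 8.72e-28), RPP1A 2.16 (SE 0.14, adjusted p = 5.32e-26), RPP2A 2.03 (SE 0.14, adjusted p = 6.21e-24) and RPP1B 1.57 (SE 0.14, adjusted p = 2.95e-18). RPL30 had 1.74 (SE 0.14, adjusted p = 3.24e-20).

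The lowest ratios belonged to RPL3, RPL2B and RPL4A. RPL3 had 5653 and 5222 CPM in global footprint libraries, against 19649.8 and 16939 CPM in mRNA libraries, a log2 fold change of -1.75 (edgeR adjusted p = 5.19e-21, SE 0.14). RPL2B, a protein next to the peptidyl transferase centre, had 1772 and 1296 CPM in global footprint libraries, against 5267 and 3934 CPM in mRNA libraries (log2 fold change -1.58, SE 0.14, adjusted p = 1.62e-18). RPL4A had 1267 and 1010.1 CPM in global footprint libraries, against 2900.5 and 2107 CPM in mRNA libraries (log2 fold change -1.14, SE 0.14, adjusted p = 3.76e-12). In these genes both mRNA libraries lay above both footprint libraries. RPL5 fell by 1.01 on the log2 scale (SE 0.13, edgeR adjusted p = 1.53e-10). RPL10 had -0.52 (SE 0.13, adjusted p = 0.000441) and RPP0 -0.64 (SE 0.13, adjusted p = 1.67e-05), and these signs turned under library totals, to 0.25 and 0.12. There RPL10 was called higher (adjusted p = 0.00578) and RPP0 did not pass (adjusted p = 0.183). RPL25 had 0.69 (SE 0.13, adjusted p = 2.84e-06). RPL22A had 0.40 (SE 0.13, adjusted p = 0.00677), a call lost with DESeq2 (adjusted p = 0.0638) and RLE factors (adjusted p = 0.0958). It was also lost in a fit of the 2 groups alone (adjusted p = 0.0515) and with genes averaging 100 counts or more (0.13, adjusted p = 0.344). Without global replicate 1 the RPL22A value was 0.26. RPL22B had 0.77 (SE 0.18, adjusted p = 9.7e-05). RPL40A and RPL40B did not pass the test, with -0.16 (SE 0.13, adjusted p = 0.288) and 0.06 (SE 0.13, adjusted p = 0.708). RPL40A was called lower with DESeq2 (-0.31, adjusted p = 0.0245), with RLE factors (-0.31, adjusted p = 0.0289) and with genes averaging 100 counts or more (-0.42, adjusted p = 0.00124). Under library totals both were called higher, RPL40A with 0.60 (adjusted p = 9.37e-07) and RPL40B with 0.82 (adjusted p = 1.55e-09).

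The ratio moved with gene span in R64, which includes introns. A gene with an intron can thus sit in a longer class than its coding length. RPL39, which encodes a short protein, spans 542 nt. All 8 members with a span up to 400 nt rose, and their median was 2.63 on the log2 scale. Of the 10 members over 1000 nt 6 fell and 3 rose, with a median of -0.71. Among all tested genes of any span 34.8% rose and 31.0% fell. Other genes showed the same order in these classes, with medians of 1.92 and -0.20. Between 600 and 800 nt the medians were 0.97 for members and 0.97 for other genes. In monosome over polysome the 8 members with a span up to 400 nt had a median of -0.11, against 0.82 for the other genes of that span.

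**Figure D4:**
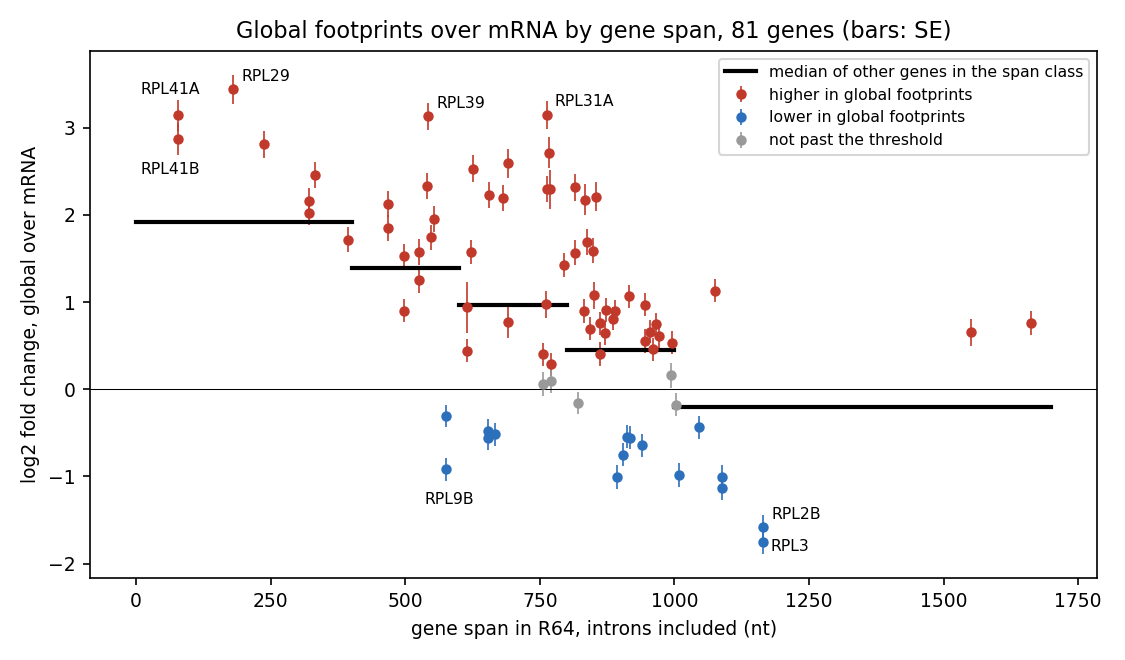
Log2 fold change of global footprints over mRNA (y axis, points, with bars of 1 SE) against gene span in R64 in nt, introns included (x axis), for the 81 genes; black lines are the medians of other genes in each span class. Short genes such as RPL29 and RPL41A lie near 3 and long ones such as RPL3 and RPL2B below -1.

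In the 33 duplicated pairs the copies did not always move together. In monosome over polysome 36.6% of all tested genes rose and 33.5% fell. The pair counts below are for TMM scaling and depend on it. Under library totals RPL8A and RPL22A were called higher, and RPL21A and RPL21B were no longer called lower. With TMM both copies rose in 3 pairs, both fell in 7, neither passed the test in 5 and 1 copy passed in 17. In 1 pair the copies passed in opposite directions. That pair was RPL1, whose copies have the same span and encode a protein of the mobile arm next to the tRNA exit site. RPL1A had 356 and 365 CPM in monosome libraries, against 553 and 598 CPM in polysome libraries (log2 fold change -0.67, SE 0.11, adjusted p = 4.41e-08). RPL1B had 887 and 828 CPM in monosome libraries, against 633 and 691 CPM in polysome libraries (log2 fold change 0.37, SE 0.12, adjusted p = 0.00403), a call lost without polysome replicate 1 (adjusted p = 0.0718). The duplicated pairs named from here on were singled out, like RPL1, after their values were seen, so no test is attached to the shares. RPL1A's fall and RPL1B's rise gave copy A 29.6% ± 1.37 of the pair's monosome counts and 46.5% ± 0.160 of its polysome counts (SD, n = 2 each).

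Across the 33 pairs, the share of copy A differed between monosomes and polysomes by a median of 5.13 percentage points, by at least 5 points in 17 pairs and at least 10 points in 3. Libraries of the 2 groups did not overlap in 26 of the 33 pairs. CPM of single genes did not overlap for 84.4% of all tested genes, and no such rate was computed for shares of other pairs. Beside RPL1, the 3 were RPL8, with 52.5% ± 0.772 in monosomes and 38.6% ± 0.350 in polysomes, and RPL22, with 85.0% ± 1.53 in monosomes and 96.1% ± 0.182 in polysomes. In RPL8, a body pair, RPL8B fell (log2 fold change -0.88, SE 0.13, adjusted p = 2.12e-09) and RPL8A did not pass the test (log2 fold change -0.06, SE 0.12, adjusted p = 0.665). In 15 pairs copy A held over 50% of the counts in all 8 libraries, and in 7 pairs under 50%.

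**Figure D5:**
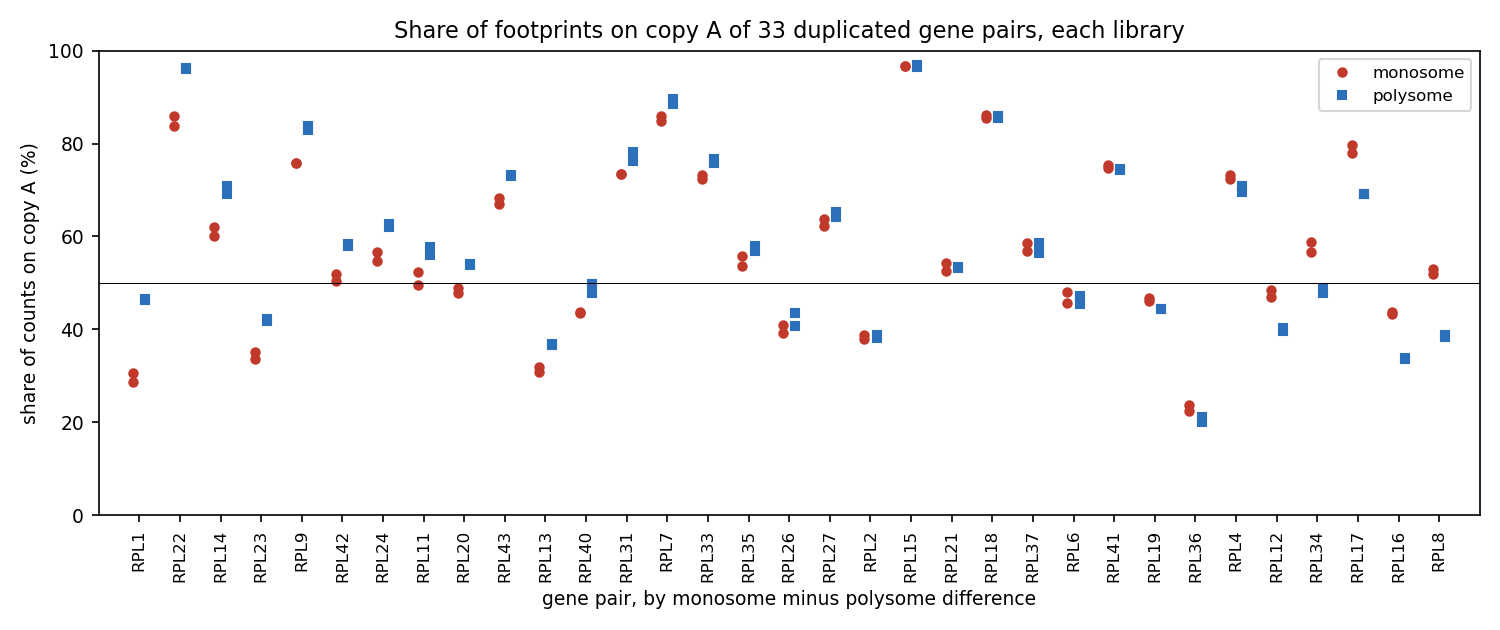
Share of a pair's counts that fell on copy A (y axis, percent) for 33 duplicated pairs (x axis), ordered by the difference of monosome minus polysome; circles are the 2 monosome libraries and squares the 2 polysome libraries. RPL1 and RPL22 at the left have lower shares in monosomes and RPL8 at the right has a higher one.

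Between global footprints and mRNA, the share of copy A differed by at least 5 points in 18 pairs, and 3 pairs had copies called in opposite directions. In that comparison 34.8% of all tested genes were called higher and 31.0% lower. RPL21A had a log2 fold change of 0.64 and RPL21B of -0.75, RPL16A of 0.90 and RPL16B of -0.44, and RPL23A of -0.55 and RPL23B of 0.81. Copy A held 57.0% of RPL21 footprints and 33.3% of its mRNA, 35.2% of RPL16 footprints and 17.8% of its mRNA, and 35.1% of RPL23 footprints and 58.1% of its mRNA, as means of 2 libraries. The falls of RPL16B, RPL21B and RPL23A turned to 0.33, 0.01 and 0.21 under library totals, where RPL16B was called higher (edgeR adjusted p = 0.000645). Without mRNA replicate 1 the fall of RPL16B shrank to -0.27. Counted once per protein, with A and B summed, 22 of the 48 proteins fell and 6 rose in monosome over polysome, against 33.4% and 36.8% of all features tested. In the same count, 34 rose and 3 fell in monosome over global (22.3% and 24.1% of all features), 42 rose and 1 fell in polysome over global (13.6% and 9.75%), and 33 rose and 9 fell in global over mRNA (34.5% and 31.0%). On that count RPL41 rose by 2.92 on the log2 scale (edgeR adjusted p = 1.04e-35, SE 0.13). RPL1, with copies that moved apart, had -0.02 (SE 0.12, adjusted p = 0.889).

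The other parts of the ribosome pathway were described by 4 lists in monosome over polysome. Of all tested genes 33.5% fell and 36.6% rose in this comparison, or 16.2% and 56.8% under library totals. With genes averaging 100 counts or more 36.2% fell and 38.6% rose. Of the 57 small subunit protein genes 29 fell and 16 rose, with -0.27 as their median on the log2 scale. Under library totals 19 of them fell and 30 rose, and the median turned to 0.19. With genes averaging 100 counts or more, 22 fell and 22 rose. The highest was RPS29A with 1.25 (SE 0.12, edgeR adjusted p = 6.27e-17) and the lowest ASC1, the yeast RACK1 homologue, with -1.42 (SE 0.14, adjusted p = 2.20e-16). Whether the 60S and 40S sets differ was not tested. Of the 8 genes listed as chaperones and escorts of large subunit proteins, not all of them dedicated to that role, 7 fell, with a median of -0.92. Under library totals 6 fell and 1 rose, with a median of -0.46. SQT1, the chaperone of Rpl10, was the lowest, with -1.61 (SE 0.10, adjusted p = 1.78e-26), and SYO1, which escorts Rpl5 and Rpl11, did not pass the test (-0.07, adjusted p = 0.597).

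Of the 15 genes listed as export and maturation factors of the 60S subunit 13 fell and 1 rose, with a median of -0.44. Most of these falls were lost under library totals, where 4 fell and 2 rose and the median turned to 0.02, and with genes averaging 100 counts or more 7 fell and 2 rose. ALB1, a partner of the export factor Arx1, was the 1 that rose, with 0.50 (SE 0.09, edgeR adjusted p = 1.59e-06), and the mRNA export receptor MEX67 was the lowest, with -0.92 (SE 0.10, adjusted p = 7.17e-14). Of the 8 regulators of ribosomal protein genes 7 were tested, of which 5 fell and 1 rose, with a median of -0.38. Under library totals 1 fell and 1 rose, and the median turned to 0.07, while with genes averaging 100 counts or more 2 fell and 1 rose. SFP1, an activator of these genes, had 0.40 (SE 0.11, adjusted p = 0.000654), and RAP1, which binds their promoters, had -1.06 (SE 0.10, adjusted p = 3.75e-17).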

How the data were processed

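Footprints and mRNA were sequenced from 8 yeast libraries, 2 per group. Per the submitters' processing notes, TopHat, Bowtie, HTSeq and DESeq2 were used with build sacCer3; versions, strand setting and the handling of reads with several matches are not given in the sources used here. The authors deposited a single table that holds whole-number read counts per gene for all libraries and, in further columns, log2 fold changes and adjusted p-values whose comparison is not named. RefSeq's R64 gene table paired 6008 of 6692 gene IDs with names, and 684 had no match. No genome sequence was used.

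From the counts, edgeR 4.0.16 (R 4.3.3) fitted 1 quasi-likelihood model over all 4 groups with TMM factors, after filterByExpr (minimum count 10, minimum total 15), which left 5336 genes. P-values were adjusted over all of them by Benjamini-Hochberg. The SE is the absolute log2 fold change divided by the square root of F, so it restates the test, and the 95% intervals use it. The fit was tested on simulated data. Total counts per library lay between 552992 and 8686385, so global and mRNA values rest on fewer counts.

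The genes named are, per comparison, the 3 largest called changes each way without overlap and with 50 counts or more on average, the extremes of each role group and list in monosome over polysome, and a set of always named members. RPL1, RPL8, RPL16, RPL21 and RPL23 copies, and members named beside a partner, were added after their values were seen. Members, roles and lists were chosen with earlier results of these data known. Alternatives were RLE factors, library totals, TMM without ribosomal protein genes, DESeq2 1.42.0, other count filters, a fit of the 2 groups alone, a replicate block, summed copies and leaving out each library. RPL7A and RPL7B overlap the snoRNA genes SNR39 (89 nt) and SNR59 (78 nt), whose reads could be counted with them.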

Additional observations from a re-analysis of the deposited data

How the results depend on the processing

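With library totals alone the 60S calls were 46 higher and 18 lower in monosome over polysome (median 0.29), 43 higher and 12 lower in polysome over global, and 6 lower in global over mRNA. With genes averaging 100 counts or more, the 60S calls in monosome over polysome were 26 higher and 23 lower (median 0.075). With copies summed the 60S proteins higher and lower were 6 and 22 in monosome over polysome, 34 and 3 in monosome over global, 42 and 1 in polysome over global, and 33 and 9 in global over mRNA, of 48 proteins. The summed counts are out of 48 proteins and the other counts out of 81 genes, so they cannot be compared directly. The causes of these changes were not tested.

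Leaving out each library in turn gave 11 to 16 60S genes higher and 26 to 33 lower in monosome over polysome, 43 to 53 and 5 to 6 in monosome over global, 56 to 67 and 2 to 2 in polysome over global, and 55 to 60 and 11 to 16 in global over mRNA; a lone library of a group is assumed there to vary like the other groups.

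Under library totals the log2 fold change turned sign in 31 of the 81 members in monosome over polysome (11 of them called lower with TMM). It did so in 15 in polysome over global (4 called higher with TMM) and 11 in global over mRNA (9 called lower with TMM). Of the members called lower with TMM, 1 in monosome over polysome (RPL26A) was called higher under library totals. The same held for 5 in global over mRNA (RPL10, RPL16B, RPL1A, RPL2A and RPL9A). In monosome over polysome those that turned include RPL25 (0.20), RPP1A (0.059), RPP1B (0.35), RPP2A (0.089), RPL22A (0.37), RPL40A (0.017), RPL40B (0.32) and RPL8A (0.39), and the non-member SYO1 (0.39) also turned. In polysome over global they include RPL3 (-0.17), RPL39 (-0.37) and RPP1A (-0.17). In global over mRNA they include RPL10 (0.25), RPP0 (0.12), RPL40A (0.60), RPL16B (0.33), RPL21B (0.0092) and RPL23A (0.21). With only genes averaging 100 counts or more the sign turned in 18, 5, 4 and 3 members in the 4 comparisons, which include RPP1B (0.13), RPL22A (0.16), RPL40B (0.11) and RPL8A (0.18) in monosome over polysome, where SYO1 (0.18) also turned, RPL10 (0.052) in monosome over global, RPL39 (-0.069) in polysome over global and RPL40B (-0.21) in global over mRNA. RPL40B in global over mRNA also changed with DESeq2 (-0.094), RLE factors (-0.094) and a fit of the 2 groups alone (-0.018). Leaving out 1 library gave ranges that crossed 0 for RPL22A (-0.19 to 0.00095), RPL8A (-0.14 to 0.013) and SYO1 (-0.15 to 0.022) in monosome over polysome, RPL10 (-0.14 to 0.054) in monosome over global, RPL39 (-0.018 to 0.19) in polysome over global and RPL40B (-0.023 to 0.19) in global over mRNA.

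Replicate numbers share only a number: deviations of same-numbered libraries from their group means correlated at -0.00844 to 0.0581 over 6 pairs of groups. With the replicate block 60S calls were 16 higher and 40 lower, 57 and 8, 69 and 2, and 60 and 16 in the 4 comparisons. With 2 libraries per group, global and mRNA depth limits what small differences can be seen.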

Other observations

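The authors' deposited table holds fold changes beside the counts and does not name their comparison. In the authors' deposited table, 13 of the 81 large subunit genes had a positive and 47 a negative log2 fold change at an adjusted p under 0.05. In 80 of the 81 genes the sign in the authors' deposited table was that of monosome over polysome as computed here. The log2 fold changes in the authors' deposited table were 2.84 for RPL41A, 1.97 for RPL22B and -1.43 for RPL13A. Of the 81 genes, 12 were called in the authors' deposited table and not in monosome over polysome here, and 1 the other way. These columns stand in the same table as the counts, so it is no independent measurement of these genes.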
